A study of Mus musculus with 24 samples.

Results

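The genes described are the NF-κB subunits Rela, Relb, Nfkb1 and Nfkb2 and the feedback inhibitors Nfkbia, Nfkbib, Nfkbiz and Tnfaip3, 8 genes chosen by their place in the pathway and not by a cut on their values. Of these, 7 were among the 18193 genes tested, through 16 probe sets annotated to exactly 1 of the symbols. Each gene is given by its probe set with the highest mean over all 24 arrays, and Nfkb1, with no probe set paired to it in the annotation used, was not analysed here. RNA came from the cerebral cortex of mice that carried ribosomal protein L10a fused to eGFP under Aldh1l1, an astrocyte gene, and it was hybridized to Affymetrix mouse expression arrays. The immunoprecipitated ribosomes gave the bound fraction (1 array per animal) and the supernatant, which holds the remaining cell types, gave the unbound fraction (pools of animals 1 to 3 and of animals 4 to 6). All groups carried the transgene, and they were sleep-deprived mice (6 bound arrays, 2 unbound pools) kept awake for 4 h of the light period with unfamiliar objects after a dark phase mostly awake, waking mice (6 and 2) and sleeping mice (6 and 2). Waking mice were killed between 3 and 5 am after more than 1 h of wake and at least 70% wake in the 6 to 7 h before, and sleeping mice between 3 and 5 pm after more than 45 min of sleep and at least 75% sleep in that time. The waking group therefore differed in time of day from the sleep group and from the sleep-deprived group, whose deprivation fell in the light period. In both comparisons time of day cannot be told apart from the state. No killing time was at hand for the sleep-deprived mice, so a match in clock time with the sleeping mice was not established.

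NF-κB is a family of dimeric transcription factors held in the cytoplasm by IκB proteins. Cytokine and Toll-like receptors activate the IκB kinase, which marks IκBα for degradation, and the released dimers enter the nucleus and transcribe target genes, among them the genes of their own inhibitors. In astrocytes the pathway is known for its part in cytokine and injury responses. Rela, Relb, Nfkb1 and Nfkb2 encode DNA-binding subunits, Nfkbia and Nfkbib encode the cytoplasmic inhibitors IκBα and IκBβ, Nfkbiz encodes the nuclear protein IκBζ, and Tnfaip3 encodes the ubiquitin-editing enzyme A20, which dampens signalling upstream of the kinase.

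Promoter windows from RefSeq (mouse build GRCm38.p6, 250 bases before to 50 after a start site) were at hand for 5 of the 8 genes, and the stretches before the start sites of Nfkbia and Tnfaip3 are shown because both are textbook feedback targets, of which the first differed by state and the second did not pass the test. Capitals mark matches to the κB consensus of 10 letters on either strand. The Nfkbia stretch is chr12:55492648-55492897 and the Tnfaip3 stretch is chr10:19015411-19015555, both on the minus strand, read 5′ to 3′ and ending 1 base before the start site.
Nfkbia: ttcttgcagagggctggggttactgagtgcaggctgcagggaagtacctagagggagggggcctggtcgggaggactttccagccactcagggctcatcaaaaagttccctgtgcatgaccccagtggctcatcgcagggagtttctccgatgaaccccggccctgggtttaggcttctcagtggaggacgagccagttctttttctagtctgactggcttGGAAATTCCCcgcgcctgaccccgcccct
Tnfaip3: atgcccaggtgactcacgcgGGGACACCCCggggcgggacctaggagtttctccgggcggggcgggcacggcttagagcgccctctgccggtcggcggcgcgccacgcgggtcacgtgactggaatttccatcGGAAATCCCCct

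The Nfkbia window held 1 match, which began 29 bases before the start site. Tnfaip3 held 2 matches in this window, 125 and 12 bases before the start site. A κB match was present in 8.46% of the 32851 promoter windows in the table. All 3 windows of Nfkb2 held at least 1 match, while the windows of Rela and Nfkbib held none of these letters. The core of the glucocorticoid response element, ACANNNTGT, was in 6.85% of all windows and the cyclic AMP response element, TGACGTCA, in 1.79%, on either strand, and neither was found in the windows of the 5 genes.

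Levels below are log2 RMA values. Over all genes, the median log2 difference came to 0.11 for sleep deprivation minus sleep, 0.02 for sleep deprivation minus waking and 0.09 for waking minus sleep in the bound fraction, 0.18 and 0.30 for sleep deprivation and waking minus sleep in the unbound fraction, and 0.16 for bound minus unbound. Differences are given after subtracting that median, with the standard error (SE), and the adjusted p (limma, Benjamini-Hochberg over all genes, threshold 0.05) belongs to the difference as fitted. Any 2 arrays of the same group shared 220 to 2400 exactly equal values and any 2 arrays of different groups 0 to 3, so RMA may have been run for each group separately, and a run cannot be told apart from a group. Aldh1l1 was 13.2-fold higher in the bound than in the unbound fraction (adjusted p = 7.44e-18, limma). All 10 astrocyte markers were higher in the bound fraction, 9 of 10 neuron markers were lower, and 8 of 9 oligodendrocyte markers and 6 of 10 microglia markers were lower, while 8 of 10 meningeal and fibroblast markers were higher and 1 lower. For 9 endothelial markers, bound exceeded unbound levels in 5 and fell below them in 2. In such bulk samples, fewer cells of a type and less RNA per cell cannot be told apart. Astrocyte markers had mean levels per array of 9.13 to 9.74 in the unbound pools, above 5.79, the median level of all probe sets. Astrocyte RNA may thus have stayed in the supernatant, and bound minus unbound cannot tell cell type apart from binding to ribosomes.

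Nfkbia, the IκBα gene, was the only one of the 7 genes whose brightest probe set passed the test between states in the bound fraction, and it was highest after sleep deprivation. The lowest, median and highest levels were 11.17, 11.50 and 11.56 after sleep deprivation, 10.03, 10.94 and 11.13 in waking, and 10.23, 10.43 and 10.93 in sleep. Every sleep-deprived animal stood above every waking and every sleeping animal, and waking and sleep overlapped. Among all genes tested, 8.46% had no overlap between sleep deprivation and sleep, and 4.84% had none between sleep deprivation and waking.

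**Figure D1:**
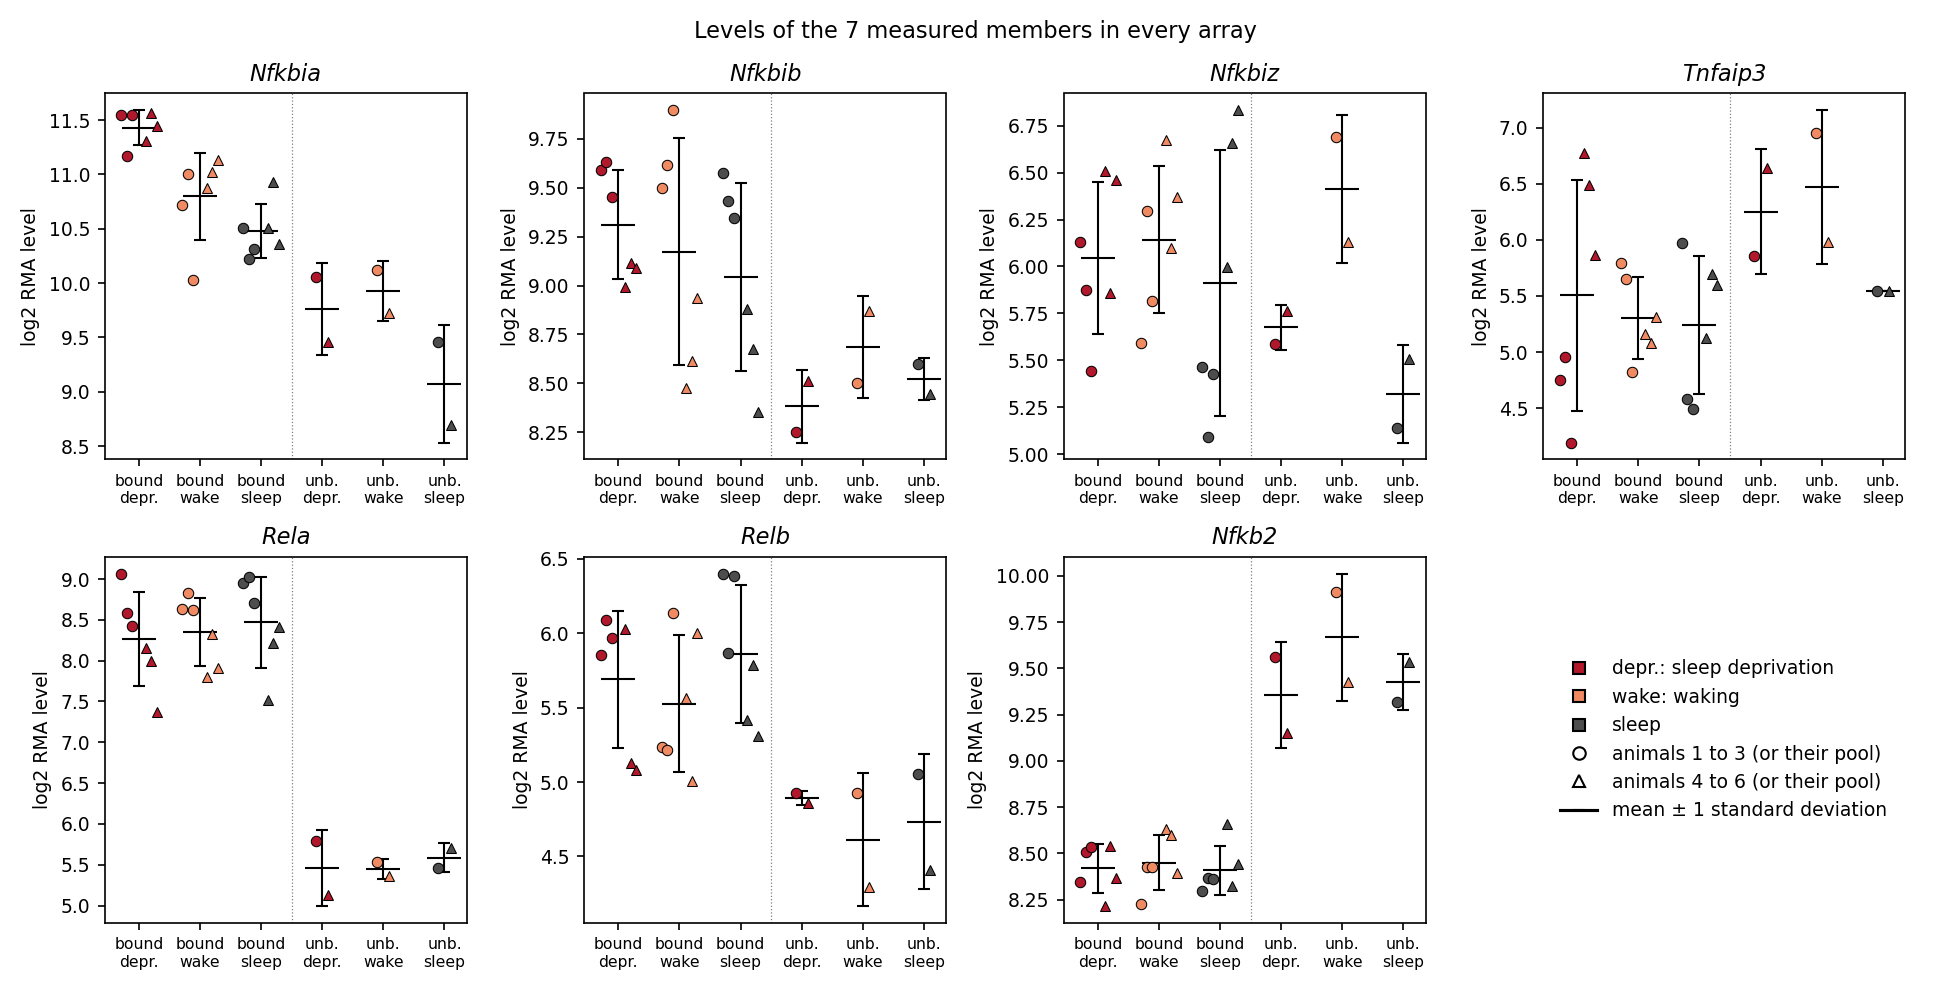
Log2 RMA level (vertical axis) of the 7 measured genes in every array, by fraction and state (horizontal axis), with the mean and 1 standard deviation. Circles are animals 1 to 3 or their pool and triangles animals 4 to 6 or their pool, and the sleep-deprived bound arrays of Nfkbia, 11.17 to 11.56, lie above all its other arrays.

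Nfkbia was 1.80-fold higher after sleep deprivation than in sleep (log2 difference 0.84 ± 0.17 SE, n = 6 each, adjusted p = 0.000719, limma), with 6 of 6 animals above the highest sleeping animal. Genes past the threshold made up 14.3% of all genes in this comparison, so 1 of 7 is a share near the background. Against waking, Nfkbia was 1.53-fold higher after sleep deprivation (0.61 ± 0.17, adjusted p = 0.0258, limma), where 6.84% of all genes passed. Waking minus sleep was 0.23 ± 0.17 (95% interval -0.12 to 0.58, adjusted p = 0.263, limma), where 11.2% of all genes passed. The difference of sleep deprivation from sleep passed in 29 of 29 other settings and left-out arrays, while that from waking passed in 22 of 29. Without waking animal 3, the lowest waking animal, waking minus sleep was 0.39 with an adjusted p of 0.0255 (limma).

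The sleep deprivation difference was read by all Nfkbia probe sets. The 5 probe sets were 0.77 to 1.03 log2 units higher after sleep deprivation than in sleep, and 4 of them passed over all probe sets (limma). The dimmest, 1448306_at, gave 0.98 ± 0.39 with an adjusted p of 0.075. Against waking the 5 gave 0.53 to 0.93, and 3 passed. For waking minus sleep they gave 0.10 to 0.43, and none passed (smallest adjusted p 0.0539, limma).

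**Figure D2:**
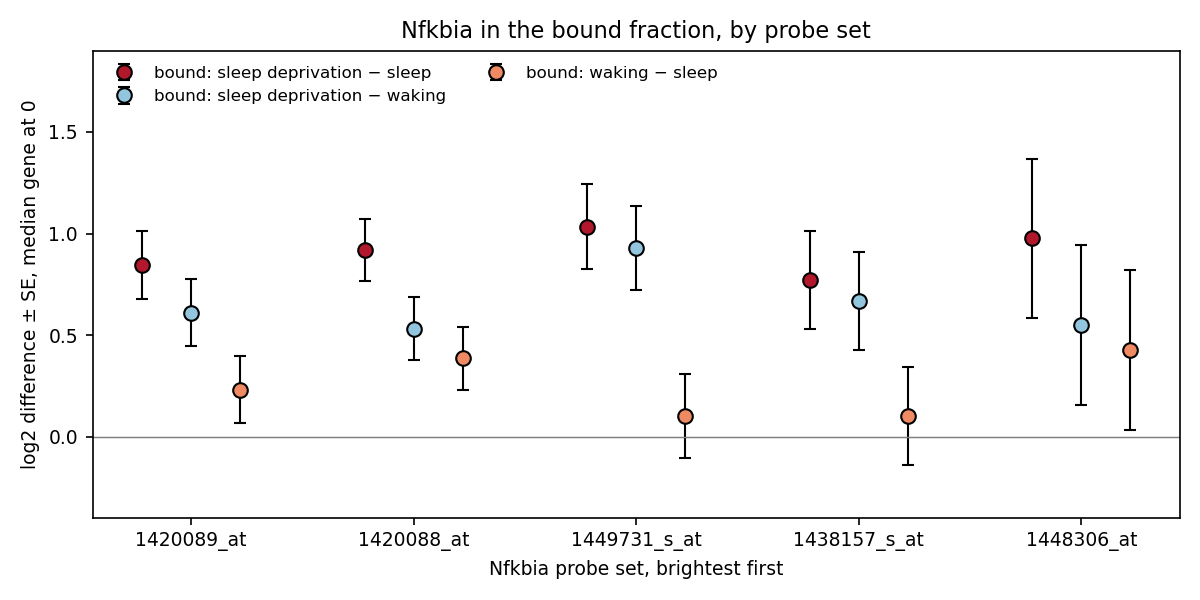
Log2 difference with its SE (vertical axis) for the 5 Nfkbia probe sets, brightest first (horizontal axis), in the bound fraction. The differences between sleep deprivation and sleep, 0.77 to 1.03, exceed those between waking and sleep, 0.10 to 0.43, in each probe set.

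In the unbound fraction no state difference of Nfkbia passed. Its levels were 10.06 and 9.46 in the sleep deprivation pools, 10.12 and 9.73 in the waking pools, and 9.46 and 8.69 in the sleep pools. The lower sleep deprivation pool (9.4612) and the higher sleep pool (9.4592) were all but equal. Neither the sleep deprivation nor the waking pools overlapped the sleep pools, as was the case for 58.4% and 65.2% of all genes with 2 pools each. The differences from sleep were 0.51 ± 0.33 after sleep deprivation (adjusted p = 0.254) and 0.55 ± 0.33 in waking (adjusted p = 0.14, limma). The threshold was passed by 1.87% and 6.32% of all genes in these comparisons, and by none of the 7 genes.

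Whether the state differences of Nfkbia differed between fractions was tested by an interaction term. Bound minus unbound was 0.33 ± 0.36 for the sleep deprivation difference (adjusted p = 0.833, limma) and -0.31 ± 0.36 for the waking difference (adjusted p = 0.482, limma). Of all genes, 4.89% and 5.6% passed, and none of the 7 did. From high to low, the group means of Nfkbia were 11.43 ± 0.16, 10.80 ± 0.40 and 10.48 ± 0.25 (SD, n = 6 each) for bound sleep deprivation, waking and sleep, then 9.92 ± 0.28, 9.76 ± 0.42 and 9.08 ± 0.54 (SD, n = 2 each) for unbound waking, sleep deprivation and sleep. Among the neighbouring pairs that were tested within a fraction, bound sleep deprivation differed from bound waking past the threshold, while bound waking and bound sleep did not pass. Unbound waking and unbound sleep deprivation were not compared by a test.

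The other inhibitors gave no state difference past the threshold in the bound fraction. Nfkbib, the IκBβ gene, had lowest, median and highest levels of 8.99, 9.28 and 9.63 after sleep deprivation, 8.48, 9.22 and 9.90 in waking, and 8.35, 9.11 and 9.58 in sleep. The 3 groups overlapped, and sleep deprivation minus sleep was 0.16 ± 0.25 (95% interval -0.38 to 0.69).

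Nfkbiz, whose nuclear product IκBζ acts as a co-regulator of some NF-κB targets, had 5.45, 6.00 and 6.51 after sleep deprivation, 5.59, 6.20 and 6.68 in waking, and 5.09, 5.73 and 6.83 in sleep. The states overlapped widely for this probe set (sleep deprivation minus sleep 0.02 ± 0.28, adjusted p = 0.845, limma). Its second probe set, 1448728_a_at, had 5.25, 5.90 and 7.24 after sleep deprivation and 3.94, 5.25 and 5.46 in sleep, a difference of 0.82 ± 0.32 (adjusted p = 0.0596, limma). With the mean of the 3 Nfkbiz probe sets in place of the brightest, sleep deprivation minus sleep was 0.32 and passed (adjusted p = 0.0165, limma), so the call for this gene rests on how its probe sets are summarised. In the unbound pools Nfkbiz had 5.59 and 5.76 after sleep deprivation, 6.13 and 6.69 in waking, and 5.14 and 5.51 in sleep. Both waking pools exceeded the other 4 pools, and 65.2% of all genes had no overlap between waking and sleep pools. The waking minus sleep difference was 0.79 ± 0.24 (adjusted p = 0.0538, limma), while the second probe set gave -0.24 ± 0.29 (adjusted p = 0.89, limma).

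Tnfaip3 had 4.19, 5.41 and 6.77 after sleep deprivation, 4.82, 5.24 and 5.79 in waking, and 4.49, 5.36 and 5.98 in sleep. The sleep-deprived animals spread beyond both ends of the other 2 groups (SD 1.03, against 0.36 in waking and 0.61 in sleep), and sleep deprivation minus sleep was 0.15 ± 0.39 (95% interval -0.67 to 0.97). Its unbound pools had 5.86 and 6.64 after sleep deprivation, 6.96 and 5.98 in waking, and 5.54 in both sleep pools. The sleep pools were lowest by this probe set, where 58.4% and 65.2% of all genes had no overlap between the sleep pools and the sleep deprivation or waking pools, with differences of 0.53 ± 0.38 for sleep deprivation and 0.63 ± 0.38 for waking that did not pass (adjusted p = 0.299 and 0.155, limma). The second probe set, 1450829_at, ran the other way, at -0.61 ± 0.33 and -0.31 ± 0.33 (adjusted p = 0.449 and 0.991, limma).

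None of the subunit genes passed in a state comparison. Rela, which encodes the p65 subunit of the main activating dimer, had 7.38, 8.29 and 9.07 after sleep deprivation, 7.80, 8.48 and 8.82 in waking, and 7.52, 8.56 and 9.03 in sleep. Its sleep deprivation minus sleep difference was -0.32 ± 0.28 (95% interval -0.91 to 0.28). Relb, the partner of the processed Nfkb2 product in the non-canonical pathway, had 5.08, 5.91 and 6.09 after sleep deprivation, 5.01, 5.40 and 6.14 in waking, and 5.31, 5.82 and 6.40 in sleep. The groups of both genes overlapped, and the largest Relb difference, waking minus sleep, was -0.42 ± 0.25 (adjusted p = 0.496, limma). Nfkb2, whose product p100 is both an inhibitor and the precursor of p52, had 8.21, 8.44 and 8.54 after sleep deprivation, 8.23, 8.43 and 8.63 in waking, and 8.29, 8.36 and 8.66 in sleep. It had the narrowest interval of the 7 genes, with sleep deprivation minus sleep between -0.30 and 0.10.

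**Figure D3:**
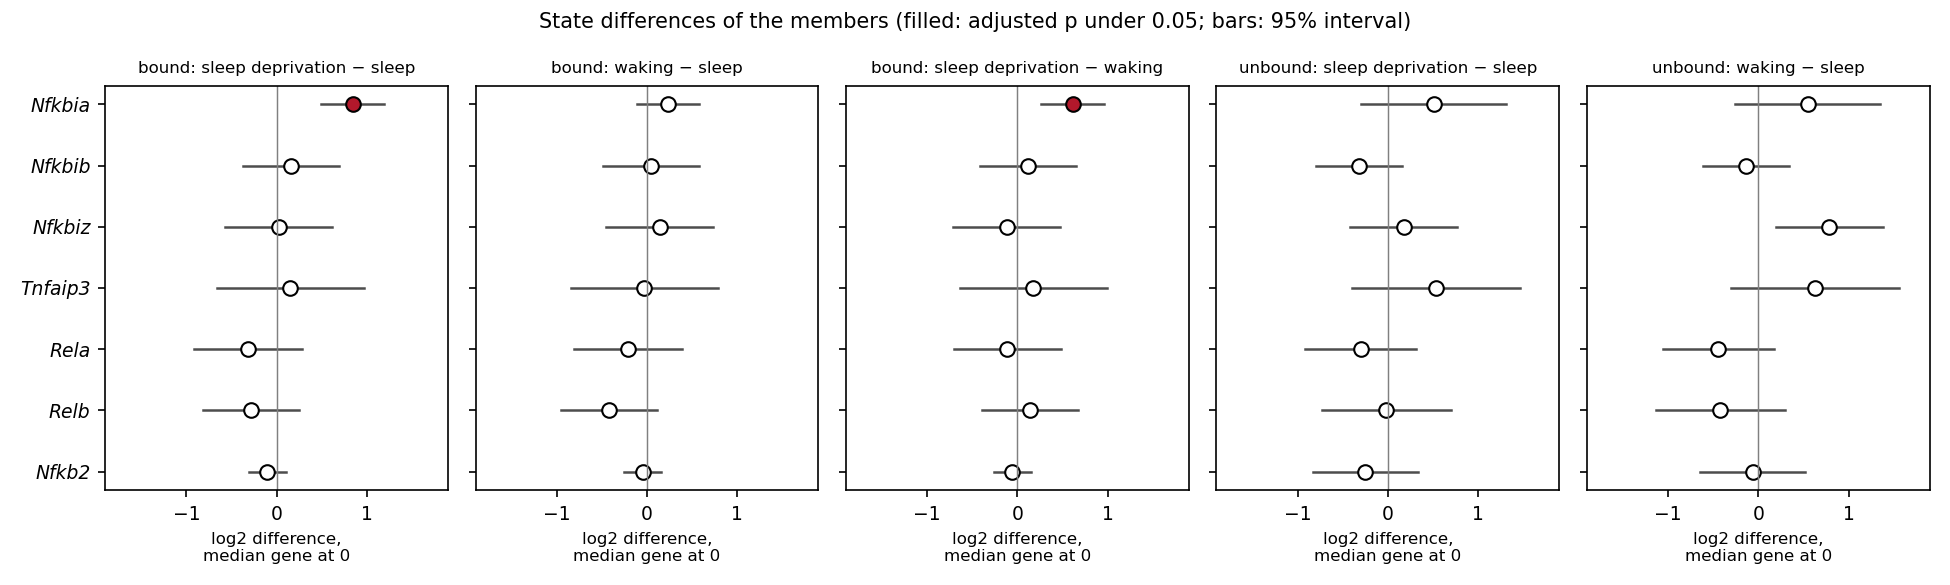
Log2 difference between states (horizontal axis, with the median of all genes at 0) for the 7 genes (vertical axis) in 5 comparisons, with 95% intervals. Filled points passed the threshold, which was the case for Nfkbia in the comparisons of bound sleep deprivation with sleep (0.84) and with waking (0.61) and for no other point.

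The fractions differed far more than the states. In bound minus unbound, 69.4% of all genes passed, and of the 7 genes 4 were higher and 2 lower. Rela had the largest difference. It lay between 7.38 and 9.07 with a median of 8.42 in the 18 bound arrays, against 5.13 to 5.79 with a median of 5.50 in the 6 unbound pools. The fractions did not overlap, as for 27.3% of all genes, and Rela was 6.53-fold higher in the bound fraction (2.71 ± 0.22, adjusted p = 1.8e-10, limma). Rela had only 1 probe set, as did Relb, so no second probe set could be set beside either difference.

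Nfkbia was 2.23-fold higher in the bound fraction (1.16 ± 0.15, adjusted p = 6.83e-08, limma), with 17 of 18 bound arrays above the highest pool. All 5 of its probe sets passed, at 1.16 to 2.21. Relb was 1.72-fold higher (0.79 ± 0.20, adjusted p = 0.000279, limma), with bound levels of 5.01 to 6.40 and unbound levels of 4.30 to 5.06, and 17 of 18 bound arrays above the highest pool. Nfkbib was 1.40-fold higher (0.49 ± 0.19, adjusted p = 0.00564, limma), with 8.35 to 9.90 in bound arrays against 8.25 to 8.87 in pools. It did not pass in animals 4 to 6 alone (adjusted p = 0.293, limma) or when arrays were centred on their medians (adjusted p = 0.133). The second Nfkbib probe set, 1446718_at, did not pass either (-0.14 ± 0.11, adjusted p = 0.885, limma). Nfkbiz did not pass (0.07 ± 0.22, adjusted p = 0.358, limma).

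Nfkb2 and Tnfaip3 were lower in the bound fraction by the brightest probe set, and their other probe sets ran the other way. Nfkb2 lay between 8.21 and 8.66 in bound arrays, against 9.15 to 9.91 in the pools, with no overlap (-1.22 ± 0.09, a 2.33-fold lower level, adjusted p = 7.26e-10, limma). Its second probe set, 1425902_a_at, lay between 5.81 and 7.69 in bound arrays, against 5.05 to 5.88 in the pools, and was higher in the bound fraction (1.19 ± 0.23, adjusted p = 1.95e-05, limma). The direction for Nfkb2 therefore depends on the probe set, and with the mean of both the fitted difference was 0.15 (adjusted p = 0.306, limma). Tnfaip3 lay between 4.19 and 6.77 in bound arrays, against 5.54 to 6.96 in the pools (-0.90 ± 0.31, adjusted p = 0.0373, limma), and passed in 21 of 32 other settings and left-out arrays. Its second probe set gave 0.63 ± 0.14 (adjusted p = 5.57e-05, limma), and the mean of both gave a fitted difference of 0.03 (adjusted p = 0.889).

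**Figure D4:**
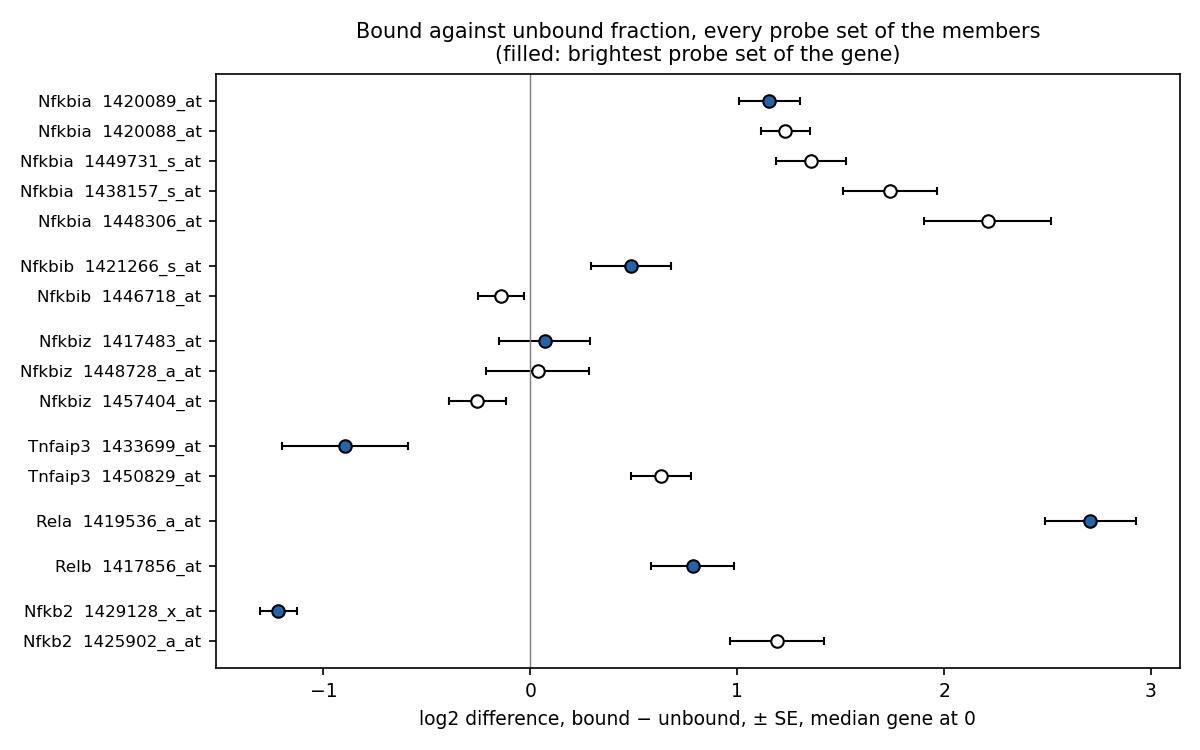
Log2 difference between bound and unbound fractions with its SE (horizontal axis, with the median of all genes at 0) for the 16 probe sets of the 7 genes (vertical axis), the brightest of each gene filled. All 5 Nfkbia probe sets are higher in the bound fraction, while the pairs for Nfkb2 (-1.22 and 1.19) and Tnfaip3 (-0.90 and 0.63) point in opposite directions.

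Animals 1 to 3 and animals 4 to 6 of each state formed separate pools in the unbound fraction, and the bound arrays of the same animals were compared after the data had been seen. Animals 4 to 6 minus 1 to 3 passed for 43.7% of all genes and for 4 of the 7 genes. Nfkbib was lower in animals 4 to 6 (-0.78 ± 0.09, adjusted p = 4.54e-06, limma), as was Rela (-0.80 ± 0.14, adjusted p = 0.000331, limma). For both genes the 2 sets of animals did not overlap within any of the 3 states, as for 18.9% of all genes. Nfkbiz (0.69 ± 0.15, adjusted p = 0.0014) and Tnfaip3 (0.64 ± 0.21, adjusted p = 0.0211, limma) were higher in animals 4 to 6, and neither passed with the mean of the probe sets. Nfkbia gave 0.22 ± 0.12 (adjusted p = 0.148, limma) by its brightest probe set. Its dimmest, 1448306_at, was lower in animals 4 to 6 (-1.24 ± 0.13, adjusted p = 2.61e-06, limma), so the sets also differed by probe set within 1 gene. In the unbound pools of animals 1 to 3 and 4 to 6, Nfkbib had 8.25 and 8.51 after sleep deprivation. It had 8.50 and 8.87 in waking and 8.60 and 8.45 in sleep. Rela had 5.79 and 5.13, 5.53 and 5.36, and 5.46 and 5.71 in the same order. The pools were not tested for a difference between sets. What distinguishes the sets is not given in the sources used here.

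By its brightest probe set, Tnfaip3 also differed between the sets after sleep deprivation. Its mean was 6.37 in animals 4 to 6 and 4.63 in animals 1 to 3 after sleep deprivation, 5.18 and 5.42 in waking, and 5.47 and 5.02 in sleep. The sets did not overlap after sleep deprivation, as for 35.9% of all genes, and overlapped in the other states. The difference between sets in the sleep deprivation effect did not pass (1.26 ± 0.52, adjusted p = 0.777, limma), and the second probe set gave 0.04 ± 0.28. No gene of the array passed that test (0%, with 1099 genes at an unadjusted p under 0.05, limma). The higher Nfkbia level after sleep deprivation than in sleep was present within both sets, at 0.71 in animals 4 to 6 (adjusted p = 0.0285, limma) and 0.97 in animals 1 to 3 (adjusted p = 0.0301, limma). Against waking it was 0.40 in animals 4 to 6 and 0.82 in animals 1 to 3, and passed in neither (adjusted p = 0.247 and 0.0944, limma).

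Other genes of the pathway were taken from lists by role, of which 66 of 72 genes were tested. After sleep deprivation 9 were higher and 1 lower than in sleep in the bound fraction, 15.2% of them against 14.3% of all genes. Sleep deprivation minus waking gave 2 higher and none lower (3.03%), and waking minus sleep 4 higher and 1 lower (7.58%), again near or under the shares of all genes. With quantile normalization repeated, 3 stayed higher and 1 lower after sleep deprivation than in sleep, and with arrays centred on their medians 3 were higher and 2 lower. Lta, Nfkbid, Zc3h12a and Icam1 passed under both, while Tnf, Il1b, Tlr2, Map3k14, Mmp9 and Cxcl1, with their smaller differences, passed under neither.

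Among ligands, 3 of 9 were higher after sleep deprivation than in sleep, all at low levels. Tnf, the founding cytokine of the pathway, had 5.04, 5.27 and 5.57 after sleep deprivation, against 4.64, 4.81 and 5.05 in sleep (0.35 ± 0.12, adjusted p = 0.0141, limma). Il1b, the interleukin-1β gene, gave 0.41 ± 0.13 (adjusted p = 0.0122) and Lta, the lymphotoxin-α gene, 0.63 ± 0.15 (adjusted p = 0.00234, limma). Among receptors only Tlr2 passed, of 10 (0.35 ± 0.12, adjusted p = 0.0129, limma). By mean bound level all 4 lay under 5.79, the median level of all probe sets on the array, though Tlr2 reached 5.81 after sleep deprivation. Of 10 microglia markers 1 was higher after sleep deprivation than in sleep, beside 12.3% of all genes. These markers had mean levels per array of 5.70 to 6.66 after sleep deprivation and 5.83 to 6.37 in sleep. Their part in these differences was not tested. With quantile normalization repeated the differences were 0.27 for Tnf, 0.31 for Il1b and 0.29 for Tlr2 (adjusted p = 0.204, 0.185 and 0.153, limma), against 0.54 for Lta, which passed (adjusted p = 0.0242). In waking minus sleep, Lta gave 0.42 ± 0.15 (adjusted p = 0.0333) and Il18, the interleukin-18 gene, 0.30 ± 0.12 (adjusted p = 0.0373, limma), and neither passed under either scaling. Cd40lg, the CD40 ligand gene, was higher after sleep deprivation than in waking (0.48 ± 0.10, adjusted p = 0.00514, limma).

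Of 13 adaptors and kinases, Map3k14, the NF-κB-inducing kinase of the non-canonical pathway, was the 1 that was higher after sleep deprivation than in sleep (0.36 ± 0.14, adjusted p = 0.0268, limma). Nfkbid, which encodes the nuclear protein IκBNS, was the 1 of 4 other subunits and IκB proteins that rose, and it was among the dimmest genes named. Its difference from waking did not pass with quantile normalization repeated (0.72, adjusted p = 0.0788, limma). Its levels were 2.94, 3.51 and 3.75 after sleep deprivation, 2.34, 2.64 and 2.94 in waking, and 1.95, 2.42 and 3.45 in sleep, with differences of 0.81 ± 0.21 from sleep (adjusted p = 0.00622) and 0.79 ± 0.21 from waking (adjusted p = 0.0244, limma). Of 9 other negative regulators, Zc3h12a rose, the gene of the RNase Regnase-1, which degrades cytokine mRNAs. It had 5.51, 5.99 and 6.86 after sleep deprivation, against 4.51, 4.94 and 5.62 in sleep, with a small overlap (0.96 ± 0.26, adjusted p = 0.00781, limma), and with the mean of its probe sets it gave 0.30 and did not pass (adjusted p = 0.0839, limma).

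Among 21 textbook target genes, 2 were higher and 1 lower after sleep deprivation than in sleep. Icam1, an adhesion molecule gene, was lower both after sleep deprivation (-0.83 ± 0.19, adjusted p = 0.0167) and in waking (-1.07 ± 0.19, adjusted p = 0.00246, limma) than in sleep. The chemokine gene Cxcl1 was higher in both (0.41 ± 0.17, adjusted p = 0.0488, and 0.54 ± 0.17, adjusted p = 0.0216, limma). After sleep deprivation it passed in 7 of 27 alternatives, and in waking it was lost with quantile normalization repeated (adjusted p = 0.137), centring (0.0565) and the mean of its probe sets (0.0502, limma). The metalloproteinase gene Mmp9 was higher after sleep deprivation (0.34 ± 0.12, adjusted p = 0.0143, limma). The chemokine gene Ccl2 was higher in waking than in sleep (0.48 ± 0.14, adjusted p = 0.0128, limma), but not with quantile normalization repeated (adjusted p = 0.079). Icam1, Cxcl1, Mmp9 and Ccl2 had mean bound levels of 4.98, 5.52, 4.84 and 5.18, under 5.79, the median level of all probe sets. Within each animal set alone, with 3 animals per state, Icam1 was again lower than in sleep but did not pass (adjusted p 0.0738 to 0.155, limma). Endothelial markers had mean levels per array of 6.05 to 6.65 after sleep deprivation, 6.40 to 6.87 in waking and 5.97 to 6.28 in sleep. Of these markers, 3 of 9 were higher in waking than in sleep, beside 9.07% of all genes. Their part was not tested. Sleep deprivation and waking were both set against the same sleep arrays.

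In the unbound pools, 3 of the 66 genes were higher and none lower after sleep deprivation than in sleep (4.55% against 1.87% of all genes), and 7 were higher and 1 lower in waking (12.1% against 6.32%). None passed with the replicate number as a block, which ended every unbound call on the array. With 6 pools in 3 states the block leaves little to estimate the spread from, so this loss cannot be read gene by gene. In waking none passed with quantile normalization repeated or centring. Ptgs2, the cyclooxygenase-2 gene, was higher after sleep deprivation (1.88 ± 0.25, adjusted p = 0.0374) and in waking (1.45 ± 0.25, adjusted p = 0.0332, limma) than in sleep, as was the growth factor gene Csf1 (1.53 ± 0.29, adjusted p = 0.0492, and 1.40 ± 0.29, adjusted p = 0.0388, limma). Csf1 did not pass under either scaling in either comparison, and with the mean of its probe sets it gave 0.37 after sleep deprivation and 0.18 in waking (adjusted p = 0.167 and 0.149, limma). Cd40lg was higher in both (1.66 ± 0.16, adjusted p = 0.0371, and 1.07 ± 0.16, adjusted p = 0.0308, limma). In waking, Irf1, an interferon-response transcription factor gene (1.07 ± 0.20), Map3k14 (0.81 ± 0.17), the receptor gene Cd40 (0.74 ± 0.17) and Tnfsf11, the RANK ligand gene (0.55 ± 0.18), were higher, and the chemokine gene Cxcl10 was lower (-1.22 ± 0.19, adjusted p at most 0.0485 for these 5, limma). Leaving out any 1 of the 6 pools leaves a state with 1 pool, so such fits cannot show whether these calls rest on single pools.

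**Figure D5:**
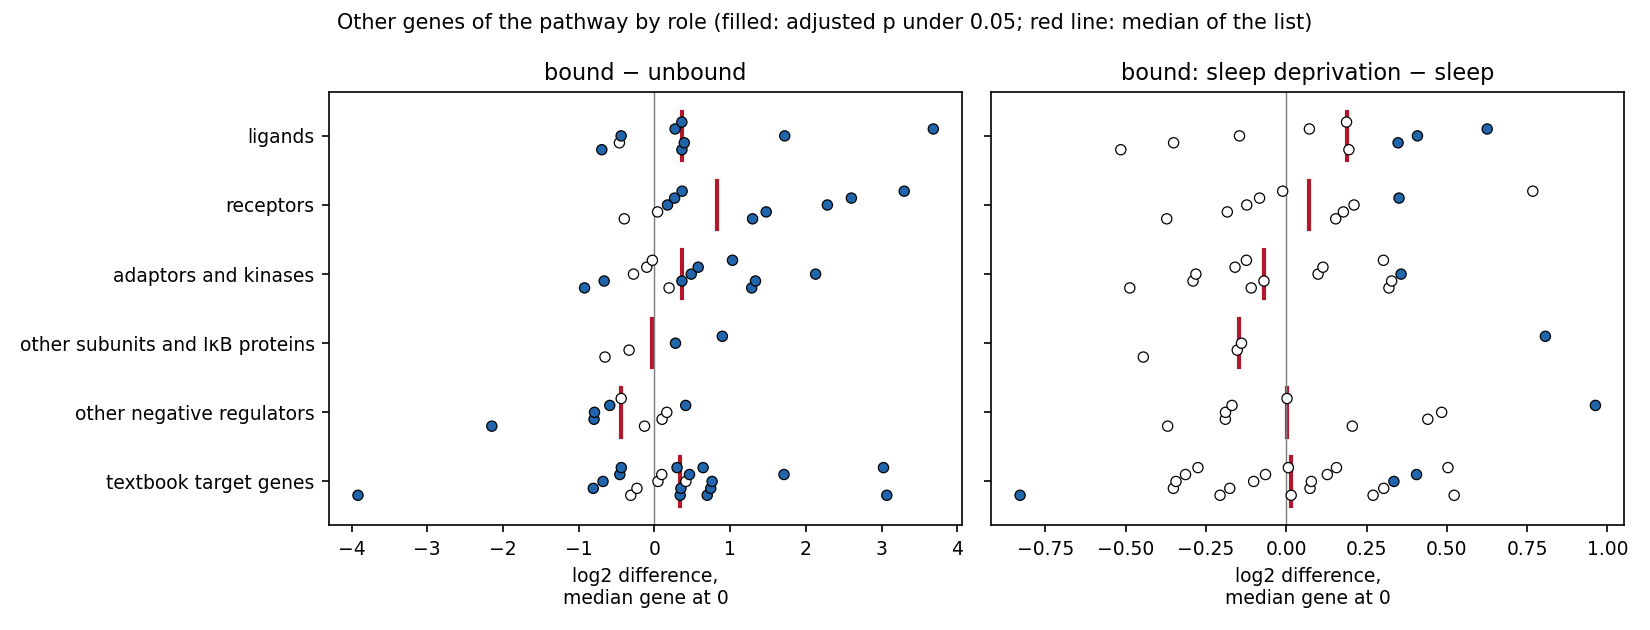
Log2 difference (horizontal axis, with the median of all genes at 0) of the other genes of the pathway by role (vertical axis), for bound minus unbound on the left and bound sleep deprivation minus sleep on the right. Each point is a gene, filled where it passed the threshold, and red lines are list medians, which range from -0.44 to 0.83 on the left and from -0.15 to 0.19 on the right.

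Between fractions, 35 of the 66 genes were higher and 13 lower in bound than in unbound samples, 72.7% against 69.4% of all genes. This split depends on the scaling, since with arrays centred on their medians 19 were higher and 21 lower. Receptors stood mostly on the bound side, with 8 of 10 higher and none lower, and 5 higher and 1 lower after centring. Tlr3, the receptor of double-stranded RNA, gave 3.30 ± 0.14 (adjusted p = 3.12e-15, limma), Tnfrsf1a, the main TNF receptor gene, 2.60 ± 0.13 (adjusted p = 2.62e-14, limma) and Tlr4, the lipopolysaccharide receptor gene, 2.28 ± 0.33 (adjusted p = 1.17e-06, limma), or 1.26 with the mean of its probe sets. Ltbr, the lymphotoxin-β receptor gene, gave 1.48 ± 0.18 (adjusted p = 5.94e-08, limma). Among adaptors and kinases 7 of 13 were higher and 2 lower, with Myd88, the adaptor of Toll-like and interleukin-1 receptors, at 2.13 ± 0.18 (adjusted p = 2.5e-10, limma). The next were the adaptor gene Traf2 at 1.33 ± 0.11, the kinase gene Irak1 at 1.28 ± 0.16 and Tab1, a kinase partner gene, at 1.03 ± 0.16, which gave 0.44 with the mean of its probe sets. Of 9 ligands 6 were higher and 2 lower, and 3 were higher and 3 lower after centring. Il18 gave 3.68 ± 0.12 (adjusted p = 1.83e-17, limma) and Il33, an alarmin gene, 1.72 ± 0.16, while Lta (-0.70 ± 0.11) and Il1a, the interleukin-1α gene (-0.44 ± 0.08), were the lower ones. Of the other subunits and IκB proteins, Nfkbie, the IκBε gene (0.90 ± 0.38, adjusted p = 0.018), and Bcl3, a nuclear IκB protein gene (0.28 ± 0.12, adjusted p = 0.00376, limma), were higher, and neither passed after centring.

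Of 9 other negative regulators, 1 was higher, 4 were lower and 4 did not pass in bound minus unbound, beside 42.2% of all genes higher and 27.2% lower. After centring none was higher and 6 were lower. Cyld, which encodes a deubiquitinase acting on the same signalling complexes as A20, was lower at -2.15 ± 0.20 (adjusted p = 2e-08, limma). Tnip2, an A20-binding protein gene, gave -0.79 ± 0.15. The deubiquitinase gene Otud7b (-0.80 ± 0.24) and the A20 cofactor gene Tax1bp1 (-0.59 ± 0.10) passed too, but not with the mean of their probe sets (-0.24 and -0.10, adjusted p = 0.312 and 0.894, limma). Among 21 target genes 11 were higher and 5 lower, against 6 and 7 after centring. Cyld, Vcam1, Ptgs2, Cxcl10 and Lcn2 passed in the same direction in every alternative run. Vcam1, an adhesion molecule gene, gave 3.02 ± 0.14 (adjusted p = 2.28e-14, limma), while Ptgs2 gave -3.92 ± 0.30 (adjusted p = 2.92e-10, limma). Cxcl10 (3.07 ± 0.24) and Lcn2, the lipocalin-2 gene (1.71 ± 0.11), were also higher. Their unbound levels, 2.33 to 3.54 and 2.55 to 3.50, lay under the lower quartiles of the pools.

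The state differences of a few of the 66 genes differed between fractions. Bound minus unbound of the waking difference was -1.35 ± 0.20 for Cd40lg, -0.75 ± 0.26 for Map3k14, -1.44 ± 0.46 for Csf1 and -1.36 ± 0.26 for Irf1 (adjusted p at most 0.0358, limma), 6.06% of the genes against 5.6% of all genes. For the sleep deprivation difference it was -1.46 ± 0.20 for Cd40lg, -1.75 ± 0.40 for Icam1 and -1.33 ± 0.35 for Vcam1 (adjusted p at most 0.0228, limma), 4.55% against 4.89%. Both Cd40lg values involve unbound sleep pools at 2.58 and 2.76, under the lower quartiles of those arrays.

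Between animals 4 to 6 and animals 1 to 3, bound levels of 17 of the 66 genes were higher and of 9 lower, 39.4% against 43.7% of all genes. Among adaptors and kinases, Ikbkg (0.63 ± 0.13) and Ikbkb (0.62 ± 0.12), which encode subunits of the IκB kinase, and Irak1 (0.50 ± 0.11) were higher in animals 4 to 6 and Tab1 was lower (-0.51 ± 0.11). Among negative regulators, Otud7b (0.96 ± 0.12), Cyld (0.67 ± 0.14) and Otulin, a deubiquitinase gene (0.52 ± 0.09), were higher and Zc3h12a was lower (-0.61 ± 0.16). Of the receptors, Tlr3 was higher (0.47 ± 0.10), and Ltbr (-0.67 ± 0.10), Cd40 (-0.52 ± 0.06) and Tnfrsf1a (-0.35 ± 0.08) were lower. The ligand gene Il33 was higher (0.62 ± 0.09), and the ligand gene Tnfsf11 (-0.44 ± 0.12) and the IκB protein gene Bcl3 (-0.33 ± 0.10) were lower. Of the target genes, Csf1 (0.47 ± 0.15) and Cxcl1 (0.38 ± 0.09) were higher, and the stress-response gene Gadd45b (-0.97 ± 0.11) and the survival gene Bcl2l1 (-0.70 ± 0.13) were lower, and all genes named for the animal sets had an adjusted p of at most 0.02 (limma).

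Over the 18 bound arrays, the genes whose levels were most like those of Nfkbia were Cdo1, which encodes cysteine dioxygenase, Trio, a guanine nucleotide exchange factor gene, and Crem, a cyclic AMP-responsive repressor gene. Their Pearson correlations with Nfkbia were 0.90, 0.89 and 0.89, the highest among 9785 genes. All 3 were higher after sleep deprivation than in sleep, Crem by 1.43 ± 0.15 (adjusted p = 4.22e-06, limma). They were picked for likeness to Nfkbia over these same arrays, so their rise is no separate support. With the state means taken off, the highest were Stau1 (0.83), Slc20a1 (0.83) and C9orf72 (0.81). These values are descriptions, since the arrays share their states and sets of animals. Between Nfkbia and the other 6 genes the correlations of levels ran from -0.29 for Rela to 0.27 for Nfkbiz. With the state means taken off they ran from -0.50 for Nfkbib to 0.37 for Nfkbiz. With the means of the animal sets within each state taken off, they ran from -0.32 for Relb to 0.40 for Tnfaip3, and Nfkbib gave -0.08.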

How the data were processed

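The deposited values are log2 expression values per probe set, made by the authors with RMA per the submitters' processing notes (no version is stated in the labels). Each array was used as deposited. Probe sets were named from the platform annotation (34945 with 1 symbol, 932 with several, 9160 with none, 64 controls left out), and 34741 of the named ones matched RefSeq by Entrez ID. The brightest probe set stood for each gene.

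Groups were compared with limma 3.58.1 (lmFit, eBayes) in R 4.3.3 and Benjamini-Hochberg adjustment over 18193 genes. The spread came from 18 bound arrays for bound state comparisons, from 6 unbound arrays for unbound ones and from all 24 otherwise. Scripts were tested on simulated data. Tables and figures used Python 3.11.15, numpy 2.4.6, pandas 2.3.3, scipy 1.17.1 and matplotlib 3.10.9. The number of arrays limits the precision, and the labels call the arrays biological replicates.

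The genes and lists were chosen with earlier results of these data known, and the 2 comparisons of animals 4 to 6 with 1 to 3 were chosen once the data had been examined. Named were all members, up to 4 genes per pathway list and comparison with the largest difference past the threshold, and the 3 genes most like Nfkbia before and after state means were taken off, among genes at or above the median level.

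The models had no block. Bound arrays with the same replicate number deviated together in all 18 pairs of arrays from different states (correlation 0.27 to 0.53). The unbound pools gave 0.00 to 0.03. Pairs with different numbers were not computed, and arrays with the same number also belong to the same animal set. Whether the numbers pair the bound arrays was therefore not tested. Each result was recomputed with the number or the animal set as a block, in 1 set of animals, after quantile normalization or centring, without dim genes, with the mean of a gene's probe sets or each probe set on its own, with other variance estimates, and leaving out 1 array at a time.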

Additional observations from a re-analysis of the deposited data

Results flagged for a closer look

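The Nfkbia level of waking animal 3 in the bound fraction was 10.03, far from the other 5 waking animals, of which the nearest had 10.72. The gap was 0.627 of the range of the group, just above Dixon's critical ratio for 6 samples. It was the 1 such case among 21 groups of 6 examined, and chance gives about 1 in 20. Without this array, waking minus sleep passed for Nfkbia (log2 difference 0.39, adjusted p = 0.0255, limma).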

How the results depend on the processing

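Of 1774 repeats of single-gene results over the 7 genes, 1741 kept direction and side of the threshold, 21 were lost, 9 were gained and 3 reversed. The reversals came with the mean of probe sets, in the difference as fitted, for Nfkb2 (0.15) and Tnfaip3 (0.0282, or -0.09 after the median of all genes is taken off, so no reversal on that scale) in bound minus unbound and for Nfkb2 in animals 4 to 6 minus 1 to 3 (-0.39, adjusted p = 0.00133, limma). Nfkbia after sleep deprivation against sleep ranged from 0.71 to 0.97 over 29 alternatives (adjusted p at most 0.0301, limma). Against waking it was lost, leaving 0 of the genes described past the threshold against 1, in animals 4 to 6 or 1 to 3 alone, without dim genes (4 of the 7 genes tested), and without waking animal 1 or sleep-deprived animal 1, 3 or 5 (adjusted p 0.0517 to 0.0561, limma), so left-out arrays gave 0 to 1. In waking minus sleep left-out arrays gave 0 to 1 of the 7 genes, 1 without waking animal 3. Against sleep, 2 genes passed after sleep deprivation with the mean of probe sets, and in unbound waking 1 passed, Nfkbiz, with an intensity trend and robust prior (adjusted p = 0.0367, limma). Without dim genes 2 of the 4 genes still tested differed between animal sets, against 4 of 7, since Nfkbiz and Tnfaip3 were not tested there. The replicate block raised the genes of the array past the threshold to 3881 (2597 without it) in sleep deprivation minus sleep, 1913 (1244) in sleep deprivation minus waking and 3064 (2039) in waking minus sleep. It gave 0 in both unbound comparisons and changed none of 56 calls for the 7 genes. In the same bound order, the animal set as a block gave 4102, 2164 and 3385, animals 4 to 6 alone 1134, 143 and 638, animals 1 to 3 alone 1476, 585 and 937, genes at or above the median level 250, 54 and 95, and every probe set 5063, 2606 and 4087. Quantile normalization repeated and centring lowered the share of higher calls in sleep deprivation minus sleep from 85.9% to 56.9% and 69.2%, and in waking minus sleep from 80.9% to 55.4% and 64.9%. In unbound sleep deprivation minus sleep (341 genes, 76.0% higher), quantile normalization gave 134 (49.3% higher), centring 153 (49.7%), no dim genes 0, the mean of probe sets 568, every probe set 744, the spread of 24 arrays 999, the trend and robust prior 1377, and left-out pools 0 each. In unbound waking minus sleep (1149 genes), quantile normalization and centring gave 0, no dim genes 455, the mean of probe sets 2031, every probe set 2119, the trend and robust prior 3101, and left-out pools 0 each. In bound minus unbound (12627 genes, 60.8% higher), no dim genes gave 7855, every probe set 23793, and centring 12711 with 39.7% higher. The waking difference between fractions (1018 genes, 33.7% higher) gave 43 without dim genes, 2145 with every probe set, 502 to 1014 with left-out arrays, and 54.7% and 71.0% higher with quantile normalization and centring. The sleep deprivation difference between fractions (890 genes) gave 11, 1810 and 447 to 883 in that order. Both were lowest without 1 of the unbound pools compared. Between animal sets, every probe set gave 14401 against 7943 genes, and for the sleep deprivation effect left-out arrays gave 0 to 1 gene against 0. Dim genes left out and every probe set change the number of features tested by construction, and single sets or left-out arrays the number of arrays. A left-out unbound pool also leaves 1 pool in its state, so those fits cannot show what the unbound calls rest on. Without dim genes, calls in sleep deprivation minus sleep fell from 2597 to 250, while at least 9785 of 18193 genes stayed in. Lower quartiles of the bound arrays ran from 3.53 to 3.59 in sleep, 3.72 to 3.83 in waking and 3.76 to 3.88 after sleep deprivation. The cause of that fall and of the other changes was not tested. Signal over background was not measured here, so which dim probe sets limit detection is not known.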
